A study of Mus musculus with 8 samples.

Results

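The mitosis and G2/M gene set is a list of 50 genes whose products carry a cell from the end of DNA replication through mitosis: the mitotic cyclins and their kinase, the spindle checkpoint, kinetochores, motor proteins and the machinery of cell division. The members were taken by symbol from the array's probe annotation, with every probe set that carried a listed symbol alone. A probe set is a group of short probes that together read 1 transcript region. A probe set was found for 49 of the 50 genes, 108 probe sets in all, out of 18193 genes with a probe set of 1 symbol and 45037 probe sets tested. Ccnb1, which encodes cyclin B1, had no such probe set and was not analysed here.

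The arrays came from a study of digoxin, a cardiac glycoside that blocks the Na,K-ATPase, and of RORγt, the nuclear receptor that drives Th17 differentiation. Naive CD4 T cells with a C57BL/6 background had been sorted, stimulated through CD3 and CD28, and kept 48 h under Th17 conditions. The 4 groups of 2 arrays were RORγt-deficient cells with digoxin, RORγt-deficient cells with DMSO (the solvent), wildtype cells with digoxin and wildtype cells with DMSO. All groups thus shared strain, stimulation, culture and time. The sources used here give neither the digoxin dose, nor the type of RORγt deletion, nor the number of animals behind an array. Titles name biological replicates but not separate animals or cultures, so a p-value here reflects array-to-array spread, part of which may be technical.

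A dividing cell makes most mitotic transcripts only from late S phase onwards, so their level in a culture follows the share of cells near division as well as transcription in each cell. Many of these genes are held silent in resting and G1 cells by the DREAM complex and switched on by B-MYB and FOXM1. Their promoters often hold CCAAT boxes and the cell cycle genes homology region (CHR) close to the transcription start. T cells stimulated through their receptor leave rest and divide rapidly in culture, and mitotic transcripts rise as they do.

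Within a probe set, each deposited value is a log2 difference from the average of both wildtype DMSO arrays, so those arrays always carry equal values of opposite sign and no absolute level remains. The number format of the deposited values still showed whether the lowest array of a probe set had been between 2 and 4, between 4 and 8, or at 8 or above on the log2 scale before that step. The median over all 45037 probe sets lay between -0.00 and 0.02 on every array. Of the 15 probe sets for CD4 T cell markers, 13 lay at 8 or above. All those for CD8 T cell, NK, B, myeloid and erythroid markers lay below 8. The difference between the 3' and 5' control probe sets of Gapdh and Actb stayed between -0.10 and 0.05 on every array, relative to the wildtype DMSO mean. For Actb it was -0.10 and -0.08 on the RORγt-deficient digoxin arrays, -0.08 and -0.10 on the RORγt-deficient DMSO arrays, -0.03 and -0.08 on the wildtype digoxin arrays, and 0.05 and -0.05 on the wildtype DMSO arrays. For Actb the RORγt-deficient arrays, and wildtype digoxin array 2, thus lay below both wildtype DMSO arrays. For Gapdh the genotypes overlapped, at -0.01 and -0.01 on the RORγt-deficient digoxin arrays and -0.02 and -0.07 on the RORγt-deficient DMSO arrays. The wildtype arrays read -0.03 and -0.02 with digoxin and 0.03 and -0.03 in DMSO. The part of this sign of RNA quality in the results was not tested. The transcript of RORγt itself was not analysed here, and the genotype of each array is taken from its label alone.

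Mitotic transcripts were lower in RORγt-deficient than in wildtype cells kept in DMSO, across every role in the list. Of the 49 measured genes, 39 fell (limma adjusted p under 0.05 for at least 1 probe set) and 0 rose. Over all genes measured, 0.775% had a probe set called lower and 0.335% one called higher. Counted by probe set, 52 of the 108 were called lower, against 0.426% of all probe sets, and 0 were called higher, against 0.184%. The called differences ran from -1.32 to -0.68 on the log2 scale, or 1.61-fold to 2.50-fold lower. The median difference over the 108 probe sets was -0.80, against 0.01 over all probe sets tested. In bulk RNA, fewer cells in division and less of each transcript per dividing cell cannot be told apart.

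The direction was shared beyond the called probe sets. In 100 of the 108 probe sets (92.6%) the difference was below 0, against 47.8% of all probe sets. In 92 (85.2%), both RORγt-deficient DMSO arrays lay below both wildtype DMSO arrays, against 20.1% of all probe sets. At an unadjusted p under 0.05, 83 member probe sets were lower and 1 higher, and over all probe sets 5.16% were lower and 3.9% higher at that level. The array medians over the 108 probe sets were -0.78 and -0.73 on the RORγt-deficient digoxin arrays, -0.78 and -0.75 on the RORγt-deficient DMSO arrays, -0.13 and -0.30 on the wildtype digoxin arrays, and -0.10 and 0.10 on the wildtype DMSO arrays. All 4 RORγt-deficient arrays therefore stood well below all 4 wildtype arrays, and the wildtype digoxin arrays stood below the wildtype DMSO arrays by a smaller margin.

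The number of calls rested on all 4 DMSO arrays. With wildtype DMSO array 1 left out, 3 member genes were called, and with wildtype DMSO array 2 left out, 0 were. For the RORγt-deficient DMSO arrays, the count was 9 with array 1 removed and 1 with array 2 removed. It was 22 without either of the RORγt-deficient digoxin arrays, which enter the fit only through the shared spread, and 13 in a fit of the 4 DMSO arrays alone. Quantile normalization of the deposited values, which are differences from the wildtype DMSO mean and not levels, ended the calls, with 0 member genes called. The lead probe sets of the 39 genes all stayed below 0 there, with a median difference of -0.71, against -0.91 before it. A gene's lead probe set is the one of smallest p for this comparison, so its difference tends to the larger side for genes with several. The lead probe sets of all 39 called genes stayed below 0 in each of the 8 fits that left out an array. They were chosen by their p in this same comparison, and leaving out a digoxin array does not change the difference in DMSO. The kept sign is therefore no separate support. Cenpe was called in 7 of those 8 fits, more than any other member.

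**Figure D1:**
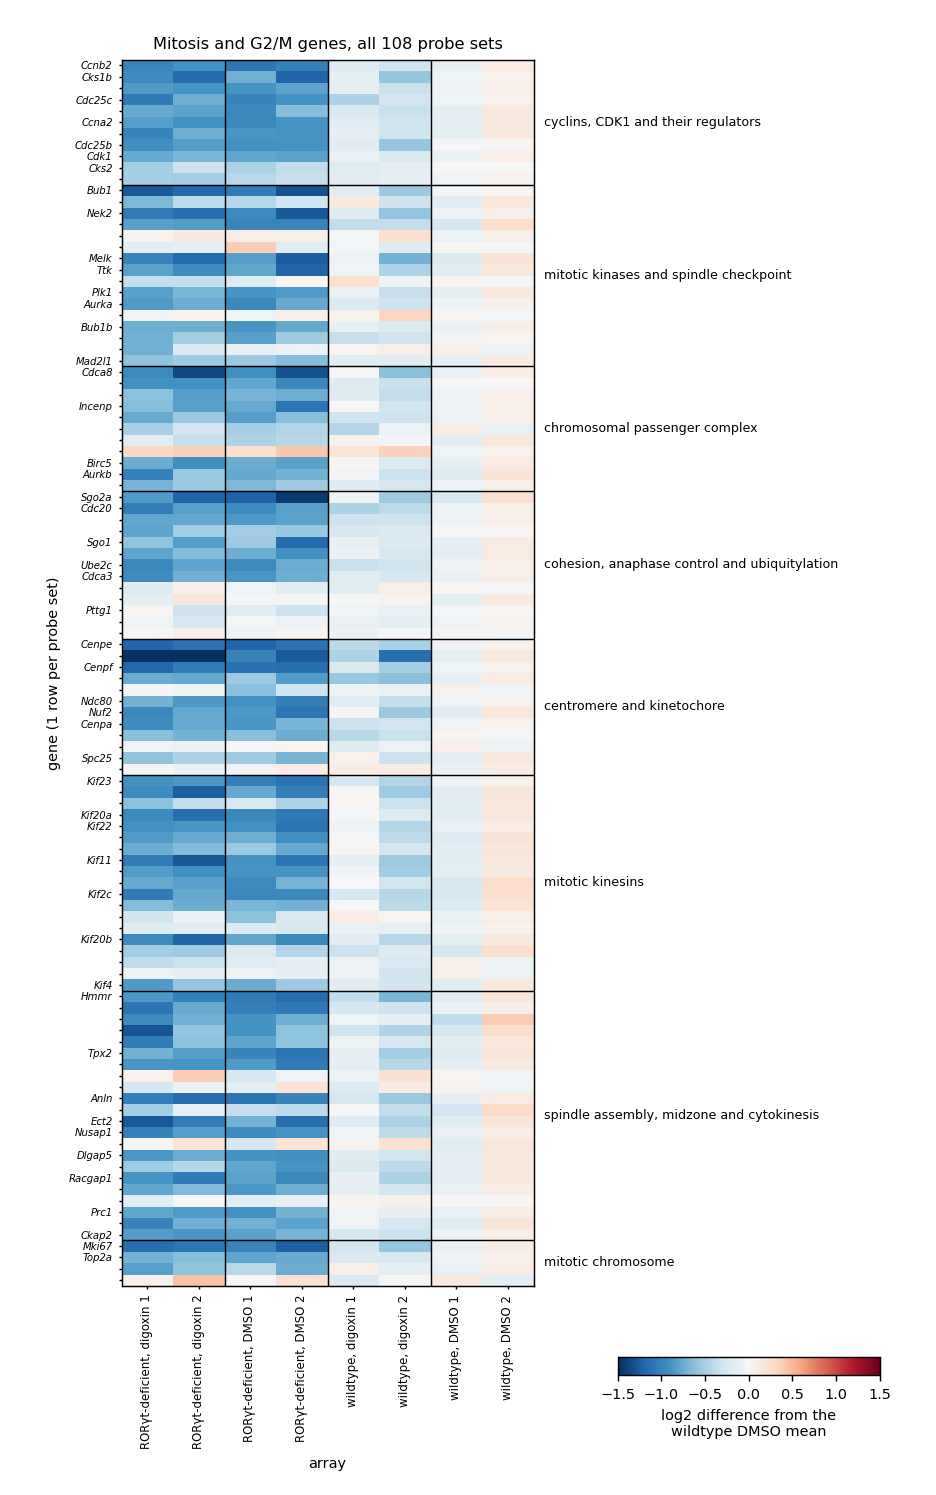
Heat map of all 108 member probe sets (rows, grouped by role) on the 8 arrays (columns), as log2 differences from the wildtype DMSO mean, blue for lower and red for higher. The 4 RORγt-deficient columns are blue in most rows, with array medians from -0.78 to -0.73, while the wildtype digoxin columns are pale blue and a few rows stay near 0 on every array.

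The 4 members with the smallest adjusted p were Cenpe, Kif23, Cenpf and Ccnb2. Their promoter windows are printed here as those of the leading genes, beside that of Pttg1, which was not called and encodes securin, the inhibitor that holds separase until anaphase. Pttg1 was picked after its values were seen and does not stand for the members that were not called. Each window runs from 250 bases before to 50 bases after the transcription start, from RefSeq on GRCm38.p6, written 5′ to 3′ along the gene's strand. Capitals mark the CHR sequence TTTGAA or its reverse complement TTCAAA, and the CCAAT box CCAAT or its reverse complement ATTGG.

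Cenpe chr3:135212313-135212612 plus strand: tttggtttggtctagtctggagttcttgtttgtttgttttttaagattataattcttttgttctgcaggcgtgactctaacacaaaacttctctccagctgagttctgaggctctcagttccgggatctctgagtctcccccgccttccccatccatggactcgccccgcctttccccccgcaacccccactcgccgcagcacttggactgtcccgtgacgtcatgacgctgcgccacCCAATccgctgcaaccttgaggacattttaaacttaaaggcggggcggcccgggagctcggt
Kif23 chr9:61946750-61947049 minus strand: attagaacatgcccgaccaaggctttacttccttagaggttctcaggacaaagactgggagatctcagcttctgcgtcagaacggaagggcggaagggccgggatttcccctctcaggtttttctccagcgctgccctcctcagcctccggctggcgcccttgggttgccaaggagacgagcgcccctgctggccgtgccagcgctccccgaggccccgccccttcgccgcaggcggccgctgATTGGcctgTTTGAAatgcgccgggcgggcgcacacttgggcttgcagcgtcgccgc
Cenpf chr1:189688037-189688336 minus strand: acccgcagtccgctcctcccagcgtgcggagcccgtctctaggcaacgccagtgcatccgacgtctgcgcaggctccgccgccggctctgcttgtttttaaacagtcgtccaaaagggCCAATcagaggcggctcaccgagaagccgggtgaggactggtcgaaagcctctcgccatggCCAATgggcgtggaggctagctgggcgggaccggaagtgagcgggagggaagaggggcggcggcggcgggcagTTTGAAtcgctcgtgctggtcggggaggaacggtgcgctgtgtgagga
Ccnb2 chr9:70421505-70421804 minus strand: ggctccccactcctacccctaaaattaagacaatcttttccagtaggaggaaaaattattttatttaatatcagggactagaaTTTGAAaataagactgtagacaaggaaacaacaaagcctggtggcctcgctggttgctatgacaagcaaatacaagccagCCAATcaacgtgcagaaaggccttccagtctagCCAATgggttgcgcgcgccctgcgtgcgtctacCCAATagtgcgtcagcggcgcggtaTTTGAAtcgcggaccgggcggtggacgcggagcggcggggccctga
Pttg1 chr11:43425932-43426231 minus strand: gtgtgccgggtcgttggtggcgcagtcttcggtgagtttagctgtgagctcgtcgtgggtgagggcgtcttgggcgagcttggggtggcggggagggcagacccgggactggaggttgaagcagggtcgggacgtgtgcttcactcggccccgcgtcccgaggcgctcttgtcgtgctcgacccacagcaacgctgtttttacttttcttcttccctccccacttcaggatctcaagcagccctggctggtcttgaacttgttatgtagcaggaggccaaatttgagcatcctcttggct

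Kif23, Cenpf and Ccnb2 each carried a TTTGAA at 2 to 4 bases after the start and at least 1 CCAAT box upstream of it. In Cenpe the variant TTTAAA, which is not in capitals above, began 14 bases after the start, with a CCAAT box at 12 bases before it. The window of Pttg1 held no match to either CHR form or to the CCAAT box.

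A promoter window was found in RefSeq for 43 of the 50 listed genes, Ccnb1 included. TTTGAA, searched on both strands, occurred in the windows of 29 of the 43 (67.4%), against 18.5% of 17492 protein-coding genes. CCAAT on either strand occurred in 33 (76.7%), against 42.3%. Both occurred within 1 window for 25 members (58.1%), against 7.4% of protein-coding genes. The variant TTTAAA, which reads the same on both strands and shares no match with TTTGAA, was found in 20.9% of members and 13.8% of protein-coding genes. The E2F sequence TTCGCGC, on either strand, was found in 4.7% of members and 2.4% of protein-coding genes. Another E2F form, TTGGCGC, was found in 9.3% of members and 3.6% of protein-coding genes. Counts are of letters in these windows and say nothing of which factors were bound in these cells.

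The position of the matches was narrower in the members. Of 41 TTTGAA matches in member windows, 30 (73.2%) lay within 50 bases of the start, against 22.2% of the matches in protein-coding genes. These matches come from 46 windows of 43 genes. Windows of the same gene can overlap, as for Ect2 and Prc1, so some sites were counted more than once. With bases before the start counted as negative, the median position was 2 in members and -129 in protein-coding genes. For CCAAT the medians were -63 in members and -90 in protein-coding genes. Among the members with a window, TTTGAA was present in 25 of the 33 called for the genotype difference in DMSO and in 4 of the 9 measured but not called. Those 4, Ttk, Spc25, Kif4 and Ect2, held CCAAT as well, while the called members Birc5 and Nusap1 held neither TTTGAA nor CCAAT. Windows of different members share the same annotation source, and these counts were not tested.

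**Figure D2:**
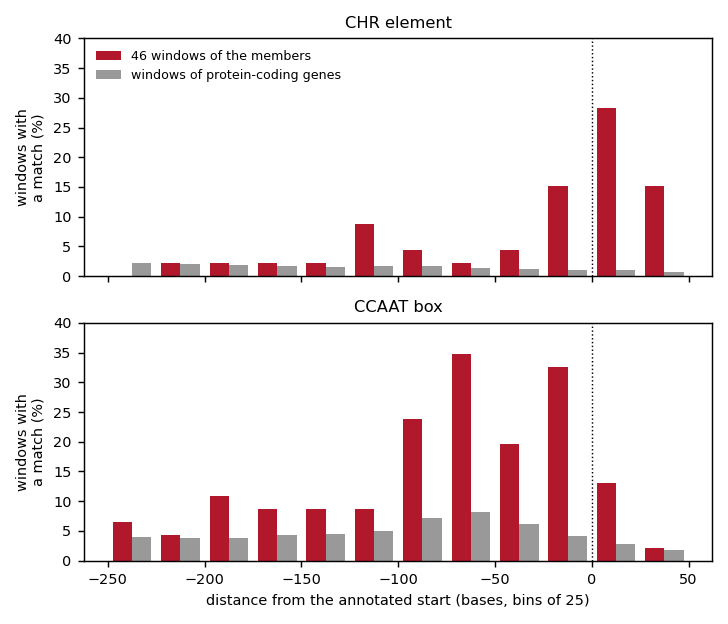
Share of promoter windows (percent) with a CHR element (upper panel) or a CCAAT box (lower panel) in each bin of 25 bases, by distance from the annotated start, for the 46 windows of the members (red) and for protein-coding genes (grey). The CHR element is most frequent in the members in the bin just after the start (28.3% of member windows, against 1.03%), and the CCAAT box in the bin at -75 to -50 (34.8%, against 8.12%).

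The cyclins, CDK1 and their regulators set the timing of entry into mitosis. Of the 7 measured members, 6 fell in RORγt-deficient DMSO cells, and all 11 probe sets of the group had a difference below 0. Ccnb2, which encodes cyclin B2, a partner of CDK1, read -0.99 and -0.90 on the RORγt-deficient digoxin arrays, -1.08 and -1.01 on the RORγt-deficient DMSO arrays, -0.20 and -0.29 on the wildtype digoxin arrays and -0.13 and 0.13 on the wildtype DMSO arrays. The 4 RORγt-deficient arrays lay close together and below every wildtype array. The difference in DMSO was -1.05 ± 0.12 (SE), 2.07-fold lower (limma adjusted p = 0.00769).

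Ccna2, which encodes cyclin A2 of S and G2 phase, read -0.83 and -0.91 on the RORγt-deficient digoxin arrays, -0.97 and -0.89 on the RORγt-deficient DMSO arrays, -0.16 and -0.30 on the wildtype digoxin arrays and -0.15 and 0.15 on the wildtype DMSO arrays with its lead probe set. Its arrays split by genotype with no overlap, and both of its probe sets were called, at -0.93 ± 0.13 (SE) (limma adjusted p = 0.0157) and -0.88 (limma adjusted p = 0.0233). Cdk1, the mitotic cyclin-dependent kinase itself, differed by -0.79 ± 0.11 (SE) (limma adjusted p = 0.0179). Cdc25b and Cdc25c, phosphatases that switch CDK1 on, were lower by 1.87-fold and 1.92-fold (limma adjusted p = 0.0227 and 0.0191). The other Cdc25c probe set was also called, at -0.80.

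The small CDK-binding proteins Cks1b and Cks2 parted. Cks1b, which also serves the ubiquitin ligase that destroys p27, differed by -0.84 ± 0.12 (SE) with its lead probe set (limma adjusted p = 0.0157) and by -0.96 with the other (limma adjusted p = 0.0618). Cks2, its paralog, differed by -0.42 and -0.38 with its 2 probe sets, neither called (limma adjusted p = 0.192 and 0.225), although its RORγt-deficient arrays also lay below the wildtype ones. Whether the paralogs differed from each other was not tested.

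The mitotic kinases and the spindle checkpoint build the bipolar spindle and hold anaphase until every chromosome is attached. In this group 5 of 8 genes fell and 13 of 16 probe sets were below 0. Bub1, a checkpoint kinase of the kinetochore, read -1.26 and -1.16 on the RORγt-deficient digoxin arrays, -1.06 and -1.30 on the RORγt-deficient DMSO arrays, -0.16 and -0.55 on the wildtype digoxin arrays and -0.03 and 0.03 on the wildtype DMSO arrays. The RORγt-deficient arrays stood more than 1 log2 unit below the wildtype DMSO mean, and the wildtype digoxin arrays differed from each other. The difference in DMSO was -1.18 ± 0.15 (SE), 2.27-fold lower (limma adjusted p = 0.0111). The other Bub1 probe set, at a level between 2 and 4, gave -0.36 (limma adjusted p = 0.59).

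Aurka, the Aurora A kinase of centrosome maturation, read -0.85 and -0.74 on the RORγt-deficient digoxin arrays, -0.97 and -0.76 on the RORγt-deficient DMSO arrays, -0.20 and -0.31 on the wildtype digoxin arrays and -0.06 and 0.06 on the wildtype DMSO arrays. Again the genotypes did not overlap, and the difference in DMSO was -0.87 ± 0.12 (SE) (limma adjusted p = 0.0157). Its other probe set, also at a level between 2 and 4, gave 0.01. Bub1b, which encodes the checkpoint protein BUBR1, differed by -0.82 ± 0.11 (SE) (limma adjusted p = 0.0157), and its 2 other probe sets by -0.68 and -0.10, not called. Nek2, a kinase of centrosome separation, was called with 2 of its 4 probe sets, at -1.11 and -0.99, and read 0.09 and 0.10 with the 2 others, both at a level between 2 and 4. Plk1, the polo kinase that acts from entry to exit of mitosis, differed by -0.87 ± 0.14 (SE) with its only probe set (limma adjusted p = 0.024).

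The 3 genes of this group that were not called also read lower, short of the threshold. Melk, a kinase of proliferating cells, differed by -1.03 ± 0.22 (SE) (limma adjusted p = 0.0966). Ttk, the checkpoint kinase MPS1, differed by -0.99 ± 0.18 (SE) (limma adjusted p = 0.051) and, with its other probe set, by -0.08. Mad2l1, which encodes the checkpoint protein MAD2, differed by -0.60 ± 0.12 (SE) (limma adjusted p = 0.0627).

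The chromosomal passenger complex, made of Aurora B with INCENP, survivin and borealin, corrects wrong attachments and later acts at the division plane. Of its 4 genes, 3 fell. Cdca8, which encodes borealin, read -0.91 and -0.91 on the RORγt-deficient digoxin arrays, -0.78 and -0.97 on the RORγt-deficient DMSO arrays, -0.20 and -0.33 on the wildtype digoxin arrays and 0.00 and 0.00 on the wildtype DMSO arrays. All 4 RORγt-deficient arrays were far below all 4 wildtype arrays, with a difference in DMSO of -0.87 ± 0.11 (SE) (limma adjusted p = 0.0132). Its 2 other probe sets gave -0.71 (limma adjusted p = 0.0369) and -1.11 (limma adjusted p = 0.0611).

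Incenp, the scaffold of the complex, read -0.63 and -0.82 on the RORγt-deficient digoxin arrays, -0.76 and -1.08 on the RORγt-deficient DMSO arrays, 0.01 and -0.30 on the wildtype digoxin arrays and -0.09 and 0.09 on the wildtype DMSO arrays with its lead probe set. The genotypes again did not overlap, and the difference in DMSO was -0.92 ± 0.15 (SE) (limma adjusted p = 0.0331). Of its 5 probe sets, 2 were called, the second at -0.73. The 3 others gave -0.44, -0.47 and 0.32, and the last of these was the highest difference of any member probe set. Birc5, which encodes survivin, differed by -0.78 ± 0.13 (SE) (limma adjusted p = 0.0336). Aurkb, the Aurora B kinase, was not called in DMSO, at -0.61 ± 0.12 (SE) and -0.74 (limma adjusted p = 0.0601 and 0.154).

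Genes of cohesion, anaphase control and ubiquitylation protect the bond between sister chromatids and then release it. In this group 5 of 6 genes fell. Cdc20, the activator of the anaphase-promoting complex, read -0.78 and -0.77 on the RORγt-deficient digoxin arrays, -0.86 and -0.80 on the RORγt-deficient DMSO arrays, -0.31 and -0.31 on the wildtype digoxin arrays and -0.07 and 0.07 on the wildtype DMSO arrays. Its arrays agreed closely within groups, and the wildtype digoxin arrays lay between the RORγt-deficient and the wildtype DMSO arrays. The difference in DMSO was -0.83 ± 0.11 (SE) (limma adjusted p = 0.0124), and the 2 other probe sets gave -0.88 (called) and -0.55 (not called).

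Ube2c, the ubiquitin-conjugating enzyme of that complex, read -0.96 and -0.79 on the RORγt-deficient digoxin arrays, -0.95 and -0.75 on the RORγt-deficient DMSO arrays, -0.34 and -0.30 on the wildtype digoxin arrays and -0.08 and 0.08 on the wildtype DMSO arrays. As for Cdc20, the wildtype digoxin arrays lay between the RORγt-deficient and the wildtype DMSO arrays. The difference in DMSO was -0.85 ± 0.12 (SE) (limma adjusted p = 0.0185). Sgo2a, a shugoshin that guards centromeric cohesion, had the lowest difference of all 108 probe sets, -1.32 ± 0.20 (SE), 2.5-fold lower (limma adjusted p = 0.0211). Its paralog Sgo1 differed by -0.82 (limma adjusted p = 0.0254) and, with its other probe set, by -0.85 (not called). Cdca3, which triggers destruction of the mitotic inhibitor WEE1, was called with 1 of its 3 probe sets, at -0.80, and the 2 others, at a level between 2 and 4, gave -0.12 and -0.01.

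Pttg1, whose promoter window is printed above, read -0.06 and -0.25 on the RORγt-deficient digoxin arrays, -0.03 and -0.09 on the RORγt-deficient DMSO arrays, -0.11 and -0.13 on the wildtype digoxin arrays and -0.06 and 0.06 on the wildtype DMSO arrays with 1 of its bright probe sets. These values overlapped between the genotypes. Its lead probe set, also bright, read 0.01 and -0.31 on the RORγt-deficient digoxin arrays and -0.16 and -0.31 on the RORγt-deficient DMSO arrays. The wildtype arrays read -0.04 and -0.11 with digoxin and -0.03 and 0.03 in DMSO. There the genotypes did not overlap in DMSO, lower in RORγt-deficient cells, and overlapped with digoxin. Its 3 probe sets gave -0.24, -0.06 and -0.01 (limma adjusted p = 0.638, 0.915 and 0.993), and 2 of them lay at a level of 8 or above. The 95% interval of the middle one ran from -0.31 to 0.19.

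The centromere and kinetochore proteins attach chromosomes to spindle microtubules. Of 6 genes, 4 fell. Cenpe, a kinesin motor of the kinetochore, had the smallest adjusted p of all members and read -1.19 and -1.11 on the RORγt-deficient digoxin arrays, -1.20 and -1.10 on the RORγt-deficient DMSO arrays, -0.39 and -0.48 on the wildtype digoxin arrays and -0.05 and 0.05 on the wildtype DMSO arrays. The 4 RORγt-deficient arrays were near the same value, and the wildtype digoxin arrays lay between them and the wildtype DMSO arrays. The difference in DMSO was -1.15 ± 0.11 (SE), 2.22-fold lower (limma adjusted p = 0.00332), and the other Cenpe probe set was called too, at -1.13 ± 0.20 (SE).

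Cenpf, a large kinetochore protein of G2 and mitosis, read -1.17 and -1.05 on the RORγt-deficient digoxin arrays, -1.12 and -1.13 on the RORγt-deficient DMSO arrays, -0.22 and -0.49 on the wildtype digoxin arrays and -0.06 and 0.06 on the wildtype DMSO arrays. The genotypes were again apart, with a difference in DMSO of -1.13 ± 0.12 (SE) (limma adjusted p = 0.00645). Its 2 other probe sets gave -0.69 and -0.46, not called. Ndc80, the microtubule-binding subunit of the NDC80 complex, read -0.71 and -0.86 on the RORγt-deficient digoxin arrays, -0.91 and -1.03 on the RORγt-deficient DMSO arrays, -0.17 and -0.36 on the wildtype digoxin arrays and -0.06 and 0.06 on the wildtype DMSO arrays. Its RORγt-deficient arrays all lay below its wildtype arrays, with a difference in DMSO of -0.97 ± 0.12 (SE) (limma adjusted p = 0.0111).

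The other listed subunits of the NDC80 complex were not called. Nuf2, the direct partner of NDC80, differed by -0.97 ± 0.19 (SE) (limma adjusted p = 0.0589). Spc25, another subunit, differed by -0.62 ± 0.15 (SE) with 1 probe set (limma adjusted p = 0.162) and by 0.02 with the other. Spc24, a subunit outside the member list, was called lower, at -0.68 ± 0.12 (SE, limma adjusted p = 0.0366). Cenpa, the histone H3 variant that marks centromeres, was called with 2 of 3 probe sets, at -0.79 and -0.68, while the third read 0.00.

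The mitotic kinesins slide, cross-link and depolymerise spindle microtubules. Of 7 genes, 6 fell, and all 19 probe sets were below 0. Kif23, the MKLP1 motor of the central spindle, read -0.91 and -0.86 on the RORγt-deficient digoxin arrays, -1.03 and -1.11 on the RORγt-deficient DMSO arrays, -0.25 and -0.43 on the wildtype digoxin arrays and -0.06 and 0.06 on the wildtype DMSO arrays. No RORγt-deficient array reached any wildtype array, and the difference in DMSO was -1.07 ± 0.11 (SE) (limma adjusted p = 0.00534). Its 2 other probe sets gave -0.89 and -0.34, not called, the last at a level between 2 and 4.

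Kif20a, the MKLP2 motor that carries Aurora B to the midzone, read -0.95 and -1.13 on the RORγt-deficient digoxin arrays, -0.97 and -1.07 on the RORγt-deficient DMSO arrays, -0.02 and -0.21 on the wildtype digoxin arrays and -0.15 and 0.15 on the wildtype DMSO arrays. Here the wildtype digoxin arrays stayed close to the wildtype DMSO arrays, and 1 of them lay within their range. The difference in DMSO was -1.02 ± 0.14 (SE) (limma adjusted p = 0.0149). Kif11, the motor that separates the spindle poles, was called with 2 of 3 probe sets, at -0.99 and -0.89, with -0.82 for the third. Kif22, which pushes chromosome arms outward, was called with 1 of 3, at -1.0, with -0.83 and -0.66 for the others.

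Kif2c, a depolymerising kinesin of the centromere, was called with 1 of 4 probe sets, at -0.97, and the 3 others ran from -0.70 to -0.22. Kif20b, a kinesin of cytokinesis, was called with 1 of 4, at -0.87, and its 3 others, all at a level between 2 and 4, ran from -0.33 to -0.10. Kif4, a chromosome-bound kinesin, differed by -0.64 ± 0.15 (SE) with its only probe set and was not called (limma adjusted p = 0.118).

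Spindle assembly, midzone and cytokinesis proteins form the spindle, bundle its midzone and pinch the cell. Of 9 genes, 8 fell, the largest number of any role. Hmmr, a spindle assembly factor that binds hyaluronan, read -1.09 and -0.76 on the RORγt-deficient digoxin arrays, -1.03 and -1.07 on the RORγt-deficient DMSO arrays, -0.26 and -0.32 on the wildtype digoxin arrays and -0.08 and 0.08 on the wildtype DMSO arrays. Its wildtype digoxin arrays lay between the other groups, and the difference in DMSO was -1.05 ± 0.13 (SE) (limma adjusted p = 0.0117). Of its 5 probe sets, 1 other was called, at -1.10, and the remaining 3 ran from -0.81 to -0.69.

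Anln, the actin-binding scaffold of the contractile ring, read -1.02 and -1.14 on the RORγt-deficient digoxin arrays, -1.08 and -0.99 on the RORγt-deficient DMSO arrays, -0.26 and -0.56 on the wildtype digoxin arrays and -0.13 and 0.13 on the wildtype DMSO arrays. Its genotypes did not overlap either, with a difference in DMSO of -1.04 ± 0.14 (SE) (limma adjusted p = 0.0148) and of -0.37 with its other probe set. Tpx2, which activates Aurora A on the spindle, was called with 2 of 4 probe sets, at -0.95 and -1.04, while the 2 others read -0.15 and 0.03. Nusap1, a microtubule-bundling protein, was called with 1 of 2, at -0.91, and its other probe set, at a level between 2 and 4, read -0.02.

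Dlgap5, which stabilises kinetochore fibres, was called with both probe sets, at -0.91 and -0.84. Racgap1, the partner of KIF23 in the centralspindlin complex, was called with 2 of 3, at -0.80 and -0.88, with -0.14 for the third. Prc1, the bundler of midzone microtubules, was called with 1 of 2, at -0.81, with -0.76 for the other. Ckap2, a spindle microtubule protein, was called at -0.75 with its only probe set. Ect2, the exchange factor that activates RhoA for cytokinesis, was not called in DMSO, at -0.92 ± 0.18 (SE) (limma adjusted p = 0.063).

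The last group holds 2 proteins of the mitotic chromosome, and both fell. Mki67, the Ki-67 protein that coats mitotic chromosomes and marks dividing cells, read -1.13 and -1.09 on the RORγt-deficient digoxin arrays, -1.0 and -1.22 on the RORγt-deficient DMSO arrays, -0.27 and -0.59 on the wildtype digoxin arrays and -0.09 and 0.09 on the wildtype DMSO arrays. Its RORγt-deficient arrays were about 1 log2 unit below its wildtype DMSO arrays, with a difference in DMSO of -1.11 ± 0.14 (SE), 2.16-fold lower (limma adjusted p = 0.0117). Top2a, the DNA topoisomerase that untangles sister chromatids, read -0.71 and -0.64 on the RORγt-deficient digoxin arrays, -0.80 and -0.75 on the RORγt-deficient DMSO arrays, -0.22 and -0.23 on the wildtype digoxin arrays and -0.07 and 0.07 on the wildtype DMSO arrays with its brightest probe set. The genotypes did not overlap there, and the difference in DMSO was -0.77 ± 0.11 (SE) (limma adjusted p = 0.0157). The 2 other Top2a probe sets were not called, at -0.58 and, at a level between 2 and 4, 0.11.

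**Figure D3:**
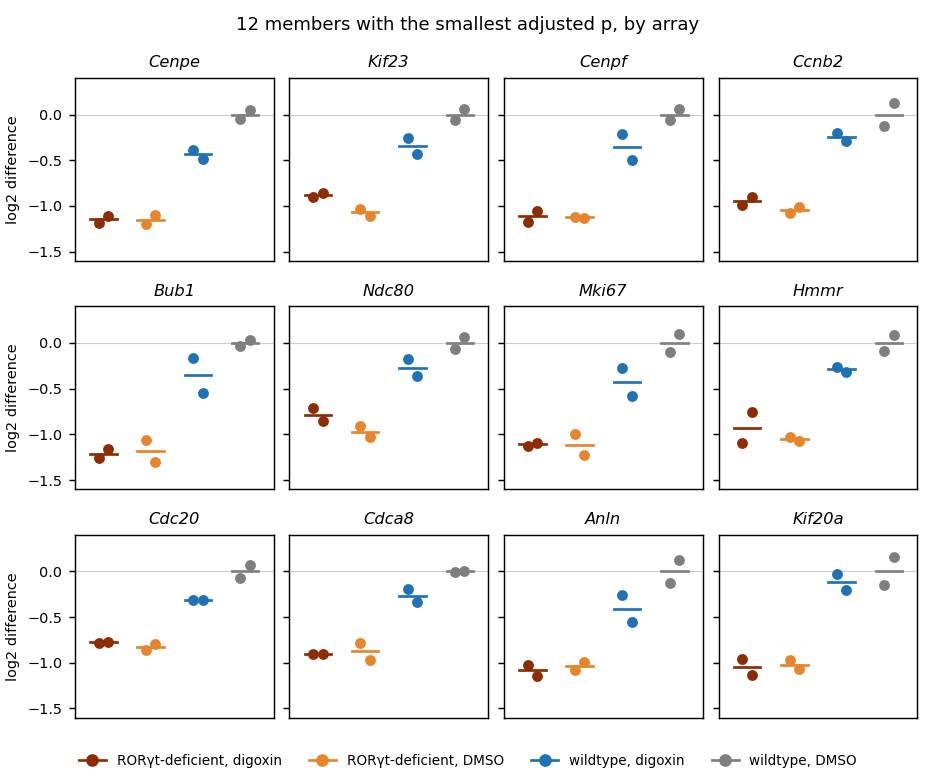
Log2 difference from the wildtype DMSO mean for the 12 member genes with the smallest adjusted p for the genotype difference in DMSO, with 1 dot per array and a line at the mean of the 2 arrays of each group. In each panel the 4 RORγt-deficient dots lie below the 4 wildtype dots, and the wildtype digoxin mean lies between, as for Cenpe at -0.44.

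Probe sets of the same gene often disagreed, and part of the disagreement went with signal level. Of 12 member probe sets whose lowest level was between 2 and 4, 0 were called by limma, and 0 reached an unadjusted p under 0.05. Their median difference in DMSO was -0.06. Of 63 between 4 and 8, 28 were called lower, with a median of -0.82. Some probe sets in this range also lay far above another of their gene, as for Incenp (0.32), Tpx2 (0.03), Cenpa (0.00) and Spc25 (0.02). Of 33 at 8 or above, 24 were called lower, with a median of -0.83, and in 32 the groups did not overlap. Over the whole array 35.7% of probe sets lay between 2 and 4, 46.5% between 4 and 8, and 17.8% at 8 or above. How many of them were called, or had groups apart, in each range was not counted. The range is that of the lowest of all 8 arrays, so it is not independent of a fall.

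**Figure D4:**
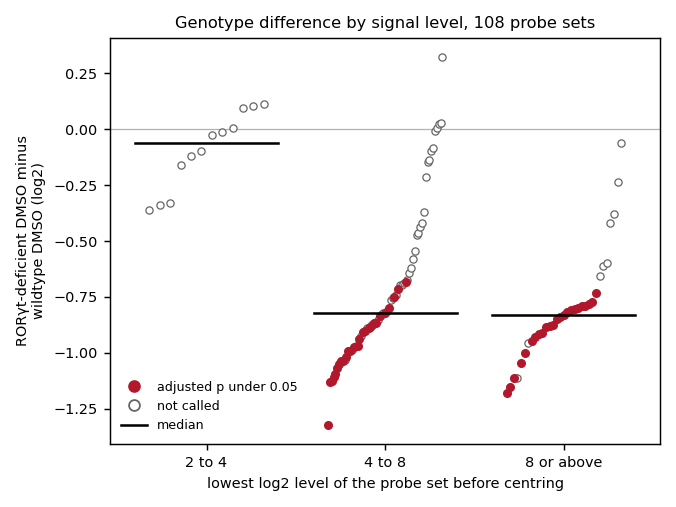
Genotype difference in DMSO (log2, RORγt-deficient minus wildtype) of the 108 member probe sets, by the range of the lowest level before centring, with called probe sets in red and a line at the median. Called probe sets lie at or below -0.68 and occur only in the ranges from 4 upwards, and the 12 probe sets in the lowest range have a median of -0.06.

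The same genes were compared between RORγt-deficient cells with digoxin and wildtype cells with DMSO. Of the 49 genes, 40 were called lower and 0 higher, against 1.08% of all genes called lower. By probe set, 56 of 108 were called lower, against 0.626% of all probe sets, with a median difference of -0.77. Calls of higher levels took in 0.533% of all genes and 0.315% of all probe sets. At an unadjusted p under 0.05, 86 member probe sets were lower and 1 higher, against 7.25% and 6.64% of all probe sets. Of the members' differences, 92.6% were below 0, against 44% of all, and 84.3% had groups that did not overlap, lower in RORγt-deficient cells, against 21.5%. This comparison has its control arrays in common with the one above, so both counts move with the same wildtype DMSO arrays. Without wildtype DMSO array 1 the count was 5, and without wildtype DMSO array 2 it was 1. It was 0 without RORγt-deficient digoxin array 1, 1 without RORγt-deficient digoxin array 2, and 0 after quantile normalization, where the 40 genes' differences had a median of -0.66, against -0.88 before it.

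The 12 members with the smallest adjusted p in that comparison were Cenpe, Cenpf, Bub1, Cdca8, Ccnb2, Anln, Mki67, Kif23, Kif20a, Ckap2, Cks1b and Cdc20. Cenpe differed by -1.15 ± 0.11 (SE) with its lead probe set (limma adjusted p = 0.00219). Its other probe set gave -1.55 ± 0.20 (SE), 2.93-fold lower and the lowest difference of any member in that comparison. Array by array that probe set read -1.54 and -1.57 on the RORγt-deficient digoxin arrays, -1.01 and -1.26 on the RORγt-deficient DMSO arrays, -0.48 and -1.13 on the wildtype digoxin arrays and -0.13 and 0.13 on the wildtype DMSO arrays. Its RORγt-deficient digoxin arrays were below every other array, and 1 wildtype digoxin array fell within the range of the RORγt-deficient DMSO arrays. Bub1 differed by -1.21 with its lead probe set (limma adjusted p = 0.00712) and Mki67 by -1.11 (limma adjusted p = 0.00825). These 2 read close to their differences in DMSO. The other Bub1 probe set read -0.67 and -0.41 on the RORγt-deficient digoxin arrays and -0.16 and 0.16 on the wildtype DMSO arrays.

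The differences of the other leading genes, whose array values are given above, ran within a narrow band with their lead probe sets. Their other probe sets varied more. On the RORγt-deficient digoxin arrays 1 of Cenpf read -0.02 and -0.07, that of Anln -0.51 and -0.11, and 1 of Cdca8 -0.95 and -1.35. The same probe sets read 0.07 and -0.07, -0.29 and 0.29, and -0.11 and 0.11 on the wildtype DMSO arrays. Cenpf differed by -1.11 ± 0.12 (SE) (limma adjusted p = 0.00537) and Cdca8 by -0.91 ± 0.11 (SE) (limma adjusted p = 0.00809). Ccnb2 differed by -0.95 ± 0.12 (SE) (limma adjusted p = 0.00825) and Anln by -1.08 ± 0.14 (SE) (limma adjusted p = 0.00825). The motors Kif23 and Kif20a differed by -0.89 ± 0.11 (SE) and -1.04 ± 0.14 (SE) (limma adjusted p = 0.00832 and 0.00967), and Cdc20 by -0.78 ± 0.11 (SE) (limma adjusted p = 0.0114).

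Ckap2 read -0.82 and -0.87 on the RORγt-deficient digoxin arrays, -0.80 and -0.69 on the RORγt-deficient DMSO arrays, -0.26 and -0.32 on the wildtype digoxin arrays and -0.09 and 0.09 on the wildtype DMSO arrays. Its difference was -0.85 ± 0.11 (SE) (limma adjusted p = 0.00983), and the genotypes did not overlap. Cks1b, with its lead probe set, read -0.85 and -0.88 on the RORγt-deficient digoxin arrays, -0.89 and -0.79 on the RORγt-deficient DMSO arrays, -0.13 and -0.33 on the wildtype digoxin arrays and -0.07 and 0.07 on the wildtype DMSO arrays. It differed by -0.87 ± 0.12 (SE) (limma adjusted p = 0.0108), and its values too were split by genotype.

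For 3 genes the calls against wildtype DMSO were not the same with and without digoxin. Aurkb differed by -0.63 in RORγt-deficient digoxin cells (limma adjusted p = 0.0418) and by -0.61 in RORγt-deficient DMSO cells (limma adjusted p = 0.0601). Ect2 differed by -1.16 (limma adjusted p = 0.0194) and -0.92 (limma adjusted p = 0.063) in the same order. Sgo2a differed by -1.02 (limma adjusted p = 0.051) and -1.32 (limma adjusted p = 0.0211). The direct difference between digoxin and DMSO in RORγt-deficient cells was -0.02 ± 0.12 (SE) for Aurkb, -0.24 ± 0.18 (SE) for Ect2 and 0.30 ± 0.20 (SE) for Sgo2a, none of them called.

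In RORγt-deficient cells, the members' differences between digoxin and DMSO arrays centred near 0, and no member passed the test. By limma 0 of the 49 genes were called, against 0.0055% of all genes and 0.00222% of all probe sets, both lower. At an unadjusted p under 0.05, 1 probe set was lower and 3 were higher, against 1.25% and 2.16% of all probe sets. The median difference over the 108 probe sets was 0.01, and 49 of them were below 0 (45.4%, against 46% of all probe sets). Groups did not overlap, lower with digoxin, in 8 (7.41%), against 11.7% of all probe sets, and higher with digoxin in 18 (16.7%), against 16.5%. Cenpe differed by 0.00, with a 95% interval of -0.24 to 0.25. Ccnb2 differed by 0.10, with an interval of -0.17 to 0.36, and Mki67 by 0.00, with an interval of -0.31 to 0.31. The other Cenpe probe set differed by -0.42, with an interval of -0.86 to 0.02. That was the lowest difference of the 108, and the highest, 0.42, was that of a Cenpf probe set. It read -0.02 and -0.07 on the RORγt-deficient digoxin arrays and -0.62 and -0.30 on the RORγt-deficient DMSO arrays.

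In wildtype cells, digoxin went with slightly lower values of most members, and no member passed the test. By limma 0 of the 49 genes were called, against 0.0495% of all genes called lower and 0.066% called higher, or 0.0266% and 0.0355% of all probe sets. At an unadjusted p under 0.05, 24 member probe sets (22.2%) were lower and 1 higher, against 3.1% and 3.17% of all probe sets. The difference was below 0 in 96 of the 108 (88.9%), against 47.4%, and the groups did not overlap, lower in digoxin, in 56 (51.9%), against 17.9%. The median difference was -0.23, against 0.01 over all probe sets. Among markers in the same comparison, 0 genes were called by limma, and at an unadjusted p under 0.05 the probe sets higher with digoxin were 4 of 12 for B cells, 4 of 10 for myeloid cells, 2 of 5 for NK cells and 2 of 15 for CD4 T cells, with none lower. The medians of these lists were 0.16, 0.15, 0.24 and 0.16, and their part in the members' differences was not tested.

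The wildtype digoxin arrays differed between themselves. Array 2 lay below both wildtype DMSO arrays for 90 of the 108 probe sets (83.3%) and array 1 for 63 (58.3%). The share of all probe sets below both was not counted for either array, so these shares cannot be set against the whole array. Their medians over the members were -0.30 for array 2 and -0.13 for array 1, against -0.10 for wildtype DMSO array 1.

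The smallest adjusted p among members in wildtype cells belonged to Cenpf and Cenpe, named here after their values were seen. The Cenpf probe set of lowest p in wildtype cells, which is not its lead probe set, read -0.75 and -0.77 on the RORγt-deficient digoxin arrays, -0.54 and -0.84 on the RORγt-deficient DMSO arrays, -0.57 and -0.63 on the wildtype digoxin arrays and -0.13 and 0.13 on the wildtype DMSO arrays. Both digoxin arrays of wildtype cells lay among the RORγt-deficient ones, and the digoxin difference was -0.60 ± 0.13 (SE) (limma adjusted p = 0.304). For Cenpe the digoxin difference in wildtype cells was -0.44 ± 0.11 (SE) (95% interval -0.68 to -0.19, limma adjusted p = 0.413) with the lead probe set and -0.80 ± 0.20 (SE) (limma adjusted p = 0.397) with the other. Among the other kinetochore genes, 1 Cenpa probe set differed by -0.37 and Ndc80 by -0.27, neither called.

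In the other roles the digoxin differences in wildtype cells varied from gene to gene. Mki67 differed by -0.43, Kif23 by -0.34, Anln by -0.41 and Cdc20 by -0.31, none called. Kif20a differed by -0.12, with a 95% interval of -0.42 to 0.19, and Birc5 by -0.09, with an interval of -0.39 to 0.20. By role, the medians ran from -0.30 for the centromere and kinetochore genes to -0.16 for the mitotic chromosome genes. Roles of few probe sets rest on few genes, and the roles were not tested against each other.

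**Figure D5:**
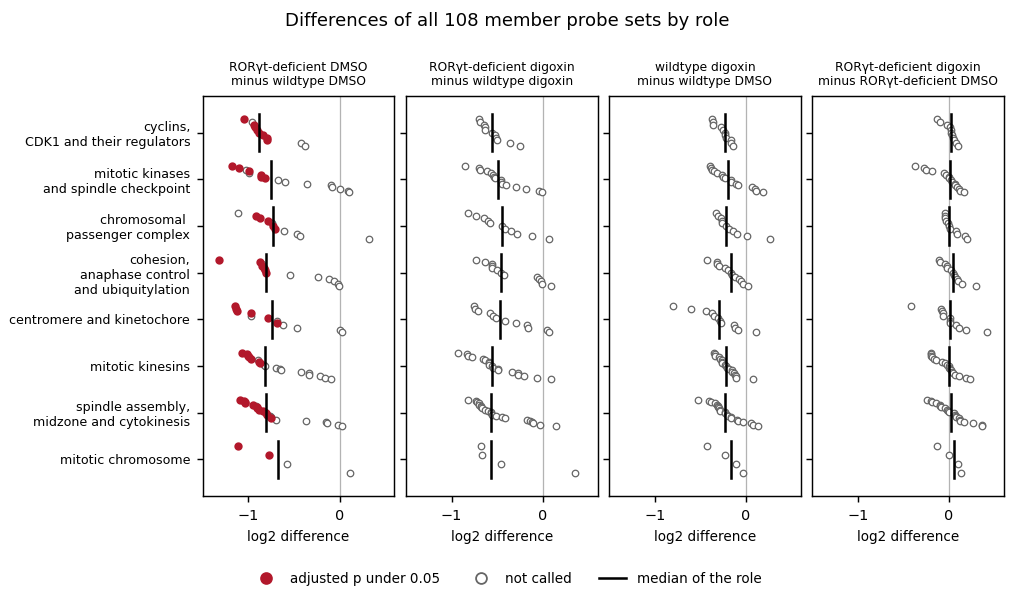
Log2 differences of all 108 member probe sets in 4 comparisons (panels), grouped by role, with called probe sets in red, others open and a line at the median of each role. Role medians lie from -0.88 to -0.68 for the genotype difference in DMSO, from -0.57 to -0.45 for the genotype difference under digoxin, from -0.30 to -0.16 for digoxin in wildtype cells and within 0.05 of 0 for digoxin in RORγt-deficient cells.

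Under digoxin, RORγt-deficient cells again read below wildtype cells for most members, with a median difference of -0.53, against -0.80 in DMSO. The test of the difference between these genotype effects is the one given below for the digoxin effects, since both are the same contrast. By limma 0 genes were called, against 0.0055% of all genes and 0.00222% of all probe sets, both lower. At an unadjusted p under 0.05, 80 member probe sets (74.1%) were lower and 0 higher, against 2.36% and 2.4% of all probe sets. The groups did not overlap, lower in RORγt-deficient cells, in 90 (83.3%), against 13.4%, and the difference was below 0 in 101 (93.5%), against 47.8%. The smallest adjusted p was that of Kif20a, at -0.93 ± 0.14 (SE) (95% interval -1.23 to -0.62, limma adjusted p = 0.302). Cenpe differed by -0.71 ± 0.11 (SE) (limma adjusted p = 0.303) and Ccnb2 by -0.70 ± 0.12 (SE) (limma adjusted p = 0.303).

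RORγt loss was also set directly against digoxin, comparing RORγt-deficient DMSO cells with wildtype digoxin cells. Here 0 member genes were called, and limma called 0 probe sets of the whole array. Before adjustment, 79 member probe sets (73.1%) were lower in RORγt-deficient DMSO cells at p under 0.05 and 0 higher, against 2.9% and 2.13% of all probe sets. The difference was below 0 in 100 of the 108, against 51.5%, and the groups did not overlap, lower in RORγt-deficient DMSO cells, in 87 (80.6%), against 15.7%. The median difference was -0.54. Ccnb2 differed by -0.80 ± 0.12 (SE) (limma adjusted p = 0.267) and Kif20a by -0.90 ± 0.14 (SE) (limma adjusted p = 0.267).

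The difference between the digoxin effects, RORγt-deficient minus wildtype, was tested directly. By limma 0 genes were called, and 0 probe sets of the whole array. At an unadjusted p under 0.05, 11 member probe sets (10.2%) were higher and 0 lower, against 1.46% and 1.32% of all probe sets. The difference of effects was below 0 in 12 of the 108 (11.1%), against 48.2%. The median over the members was 0.23, that is, a digoxin difference higher in RORγt-deficient cells, where it was near 0, than in wildtype cells, where it was below 0. For Cenpe the difference of effects was 0.44 ± 0.15 (SE), with a 95% interval of 0.10 to 0.78. For Ccnb2 it was 0.34 ± 0.17 (SE), with an interval of -0.03 to 0.72, and for Mki67 0.43 ± 0.20 (SE), with an interval of -0.01 to 0.87. The test did not show that the effects differ, and intervals of this width do not show that they are alike.

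Genes around the members were read from lists of the same pathway. Among 64 other mitosis genes with 134 probe sets, 24 genes fell in RORγt-deficient DMSO cells and 0 rose, against 0.775% and 0.335% of all genes. The median difference was -0.53. Aspm, which focuses spindle poles, differed by -1.09 ± 0.11 (SE, limma adjusted p = 0.00434), and its 4 other probe sets ran from -1.12 to -0.24. Knstrn, a spindle and kinetochore protein, differed by -1.06 ± 0.11 (SE, limma adjusted p = 0.00534), and its 4 other probe sets ran from -1.15 to -0.10. Tacc3, a spindle protein of centrosomes, differed by -1.02 ± 0.13 (SE, limma adjusted p = 0.0132), with -0.95 and -0.94 for its others. Depdc1b, a gene of mitotic de-adhesion, differed by -0.96 ± 0.13 (SE, limma adjusted p = 0.0146). In RORγt-deficient digoxin against wildtype DMSO cells, 24 genes of this list fell too and 0 rose, against 1.08% and 0.533% of all genes. The list had array medians of -0.56 and -0.55 in RORγt-deficient digoxin cells and -0.48 and -0.59 in RORγt-deficient DMSO cells, against -0.10 and -0.27 in wildtype digoxin cells and -0.08 and 0.08 in wildtype DMSO cells.

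Regulators of mitotic transcription, 15 genes with 34 probe sets, had 0 called by limma in DMSO. Of the 34, 9 were lower and 0 higher at an unadjusted p under 0.05, against 5.16% and 3.9% of all probe sets. With 1 of its 4 probe sets, Foxm1, the forkhead activator of G2/M genes, read -0.64 and -0.57 on the RORγt-deficient digoxin arrays, -0.70 and -0.55 on the RORγt-deficient DMSO arrays, 0.00 and -0.34 on the wildtype digoxin arrays and 0.07 and -0.07 on the wildtype DMSO arrays. The genotypes were apart there, and 1 wildtype digoxin array read 0.00, with a difference in DMSO of -0.62 ± 0.13 (SE, limma adjusted p = 0.1). Its 3 other probe sets gave -0.37, -0.17 and -0.08, and the genotypes overlapped in the last 2 of these. Mybl2, which encodes B-MYB, differed by -0.87 ± 0.20 (SE, limma adjusted p = 0.125) with 1 probe set and by -0.10 with the other. Rbl1, which encodes the pocket protein p107, differed by -0.88 ± 0.23 (SE, limma adjusted p = 0.177), and its 3 other probe sets gave -0.33, -0.36 and -0.09. Lin54, the CHR-binding subunit of the DREAM complex, differed by -0.62 ± 0.18 (SE, limma adjusted p = 0.254) and, with its other probe set, by -0.32.

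Brakes on entry into mitosis and CDK inhibitors, 12 genes with 21 probe sets, had 0 called in DMSO. Of the 21, 4 were lower and 4 higher at an unadjusted p under 0.05, against 5.16% and 3.9% of all probe sets. Cdkn1a, which encodes p21, differed by 0.55 ± 0.17 (SE, limma adjusted p = 0.322) and, with its other probe set, by 0.30. Btg2, an antiproliferative gene, differed by 0.33 ± 0.11 (SE, limma adjusted p = 0.327) and, with its other probe set, by 0.53. Cdkn2c, which encodes the CDK4 and CDK6 inhibitor p18, differed by -0.36 ± 0.12 (SE, limma adjusted p = 0.322), and Fzr1, the G1 activator of the anaphase-promoting complex, by -0.33 ± 0.12 (SE, limma adjusted p = 0.397).

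S phase genes, 29 genes with 65 probe sets, had 2 called lower, against 0.775% of all genes. Their median difference was -0.41, with 60 probe sets below 0, against 47.8% of all probe sets. Lower at an unadjusted p under 0.05 were 40 of the 65, and 0 were higher, against 5.16% and 3.9% of all probe sets. Groups did not overlap, lower in RORγt-deficient cells, in 52, against 20.1% of all probe sets. Pola1 and Pold1, catalytic subunits of replicative DNA polymerases, were those called, at -0.66 ± 0.12 (SE, limma adjusted p = 0.0455) and -0.62 ± 0.11 (SE, limma adjusted p = 0.046). Their other probe sets gave 0.10 for Pola1 and -0.62 for Pold1, neither called. In RORγt-deficient digoxin against wildtype DMSO cells limma called 0 S phase genes. Their probe sets lower at an unadjusted p under 0.05 were 36 of 65, against 7.25% of all probe sets. Lig1, the replicative DNA ligase, differed in DMSO by -0.72 ± 0.13 (SE, limma adjusted p = 0.0536) and Pole, another polymerase subunit, by -0.70 ± 0.13 (SE, limma adjusted p = 0.0569). G1 cyclins and kinases, 7 genes with 24 probe sets, had 0 called in DMSO, with a median of 0.08. Of the 24, 4 were higher and 0 lower at an unadjusted p under 0.05, against 3.9% and 5.16% of all probe sets. Cdk6, a G1 kinase, differed by 0.55 ± 0.15 (SE, limma adjusted p = 0.231), with 0.33 and 0.17 for its other probe sets. Ccnd2, its cyclin partner, differed by 0.45 ± 0.18 (SE, limma adjusted p = 0.465), and its 6 other probe sets ran from 0.15 to 0.27. The medians therefore ran from the members, at -0.80, through other mitosis genes and S phase genes to G1 genes, at 0.08; the lists were not tested against each other.

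Markers of other cell types were read beside these differences. In RORγt-deficient DMSO cells, 0 of the 8 CD4 T cell marker genes were called, and their 15 probe sets had a median difference of 0.18. Of the 15, 3 were higher and 0 lower at an unadjusted p under 0.05, against 3.9% and 5.16% of all probe sets. In 8 the groups did not overlap, higher in RORγt-deficient cells. The share of all probe sets with groups apart in that direction was not counted. The median differences were 0.20 for CD8 T cell, 0.19 for NK cell, 0.10 for B cell, 0.05 for myeloid and 0.00 for erythroid markers, with 0 genes called in any of them by limma, and at an unadjusted p under 0.05 1 NK and 1 B cell probe set higher and 1 myeloid probe set lower. In RORγt-deficient digoxin cells 1 marker was called, Klre1 of the NK cell list, 0.61 higher than in wildtype DMSO cells (limma adjusted p = 0.0331). The part of the markers in the differences of the members was not tested.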

How the data were processed

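Total RNA of 8 samples was hybridised to Mouse Genome 430 2.0 arrays. Per the submitters' processing notes the authors used RMA, and per the series' design text GeneSpring GX 11.5. The deposited values are log2. In every probe set the wildtype DMSO arrays sum to 0 within 1e-06, which no label records.

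Of 45101 probe sets, 64 controls were left out, and 34945 of the rest carried 1 symbol and 932 several. limma 3.58.1 (R 4.3.3) was fitted to 45037 probe sets with 4 group means over all 8 arrays (lmFit and eBayes, two-sided, residual df 4, prior df 5.82), and 7 comparisons were drawn. Adjusted p is Benjamini-Hochberg over all probe sets of a comparison, called under 0.05. A gene was called where at least 1 of its probe sets was. Intervals are 95% from the same fit. On simulated data the fit recovered 28.4% of log2 changes of 0.5 and 100% of those of 1 and 2. These shares do not carry over to every real probe set. In RORγt-deficient DMSO cells, Melk at -1.03 ± 0.22 (SE) and Depdc1a at -1.27 ± 0.31 (SE) were not called (limma adjusted p = 0.0966 and 0.152). Precision is set by the few arrays, with a median SE of a difference of 0.129. Values per array are given for the 12 called genes of smallest adjusted p and at least 2 genes per role. The members, gene lists and alternatives were chosen with earlier results of these data known. Promoter sequences are RefSeq's on GRCm38.p6.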

Additional observations from a re-analysis of the deposited data

How the results depend on the processing

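The 39 member genes called in RORγt-deficient DMSO against wildtype DMSO cells became 0 after quantile normalization and 13 in a fit of the arrays compared alone, and lay between 0 and 42 when 1 array was left out. The 40 called in RORγt-deficient digoxin against wildtype DMSO cells became 0 after quantile normalization and lay between 0 and 42 when 1 array was left out. The differences stayed below 0: after quantile normalization the lead probe sets ran from -1.11 to -0.60 for the 39 genes and from -0.90 to -0.47 for the 40, and the fit of the arrays compared alone leaves each difference as it was and changes its error. Quantile normalization left 5 and 6 probe sets called on the whole array. It was applied to values already centred within each probe set, so it matched the arrays' spread of differences, not of levels. These counts thus do not show what normalizing the levels would do. The cause of the lost calls was not tested. Under the other 8 settings the first count lay between 36 and 43, and under the other 9 the second lay between 37 and 47. The 5 other comparisons had 0 member genes called under every setting tried.

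With 1 probe set per gene, chosen by name, the sign turned for Top2a in RORγt-deficient DMSO cells (0.11) and in RORγt-deficient digoxin cells (0.25), and for Cdca3 in RORγt-deficient digoxin cells (0.009), each against wildtype DMSO. That setting reads both genes from a probe set at a level between 2 and 4.

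With the replicate number as a block, 40 and 43 member genes were called in these 2 comparisons. The numbers were not taken as pairs, because the deviations of same-numbered arrays did not correlate above 0.1 in every pair of groups. The 3 pairs with wildtype DMSO gave -0.238 to -0.134 over probe sets, and the 3 pairs among the other groups gave 0.304 to 0.456. The lone array left in a group by leaving out its partner was assumed to vary like the other groups. Members at low signal limit what can be seen, as described for the 12 probe sets between 2 and 4.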
